A study of Mus musculus with 24 samples.

Results

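The 27 genes described here encode enzymes that build cholesterol, the transcription factor SREBP2 with the proteins that hold or escort it, and 5 further SREBP2 targets. They were chosen by gene symbol, and all 27 were found among the 15160 genes in the table and among the 13336 that passed the filter on low counts, so no member was lost. Other steps of the pathway were not analysed here. The lowest count of any member in any mouse was 42.

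The RNA came from whole liver of male mice on a C57BL/6 background, labelled 5 months of age and killed after a 4 h fast. WT mice carried floxed Nfe2l2 on both alleles without Cre (NRF2fl/fl), and NRF2 KO mice were floxed mice bred to carry Alb-cre (NRF2fl/(alb)). The albumin promoter of Alb-cre is active in hepatocytes, so liver cells in which it is not active keep the gene. Both genotypes carry the floxed allele. From 8 weeks of age the mice ate for 8 weeks a diet whose methionine content was 0.86% (the control diet, Con) or 0.17% (methionine restriction, MR). These 8 weeks end before 5 months of age. The authors describe measurement of energy expenditure and a return to home cages between them and tissue harvest. After 2 mice set aside as outliers, the groups held 5 WT mice on each diet and 6 NRF2 KO mice on each diet, 1 library each.

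Cells make cholesterol from acetyl-CoA by way of mevalonate, isoprenoid units, squalene and lanosterol, and the liver is a main site of this synthesis. SREBP2 is made as a membrane protein of the endoplasmic reticulum, bound to its escort SCAP. When sterols are plentiful the INSIG proteins hold SCAP there, and when sterols fall SCAP brings SREBP2 to the Golgi, where proteases free the part that enters the nucleus and switches on the genes of the pathway. NRF2, encoded by Nfe2l2, is a transcription factor of the response to oxidative stress.

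Values are CPM, reads of a gene scaled to a common library total after TMM scaling. A 3′ library reads only the end of each transcript. Depth ran from 6197291 to 22068338 counts per mouse. Changes are log2 fold changes ± standard error, and a gene was called when the Benjamini-Hochberg adjusted p of edgeR's quasi-likelihood test over all 13336 genes was under 0.05. In whole liver, fewer cells of a type and less RNA per cell cannot be told apart. The 8 hepatocyte markers were present in every group (summed level 83130 to 123600 CPM) and none was called with MR in either genotype.

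Several libraries stood apart and touch what follows. The reads at the 3′ end of Nfe2l2, which need not fall in the deleted part of the gene, gave 94.0 to 125 CPM in 9 WT mice and 202 to 339 CPM in the NRF2 KO mice, while the library labelled WT_CON_7607 gave 324 CPM, inside the NRF2 KO range. Mouse WT_CON_7605 had the lowest value of its group for 18 of 27 members, against 21.1% of all genes. Mouse KO_CON_7620 was lowest for 24 of 27, against 15.0% of all genes. Mouse KO_MR_7632 was lowest for 19 of 27, against 19.9%, and mouse WT_MR_7613 for 13 of 27, against 20.4%. The 2 mice set aside were also low, with WT_CON_7604 below all 5 kept WT Con mice for 24 of 27 members (20.8% of all genes) and WT_MR_7612 below all 5 kept WT MR mice for 19 of 27 (25.5% of all genes), and neither was above its group for any member.

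Many genes of the pathway rose on the MR diet in either genotype, and Insig2 fell in both. In WT mice 8 of 27 members were called, 7 higher and 1 lower, beside 13.8% of all genes called (6.91% higher, 6.91% lower). In NRF2 KO mice 14 of 27 were called, 12 higher and 2 lower, beside 12.6% of all genes (6.23% higher, 6.34% lower). Of these genes, 6 (Mvk, Idi1, Fdft1, Msmo1, Tmem97 and, falling, Insig2) were called in both genotypes, 2 in WT alone and 8 in NRF2 KO alone, and 11 were called in neither. The median log2 fold change of the 27 members was 0.33 in WT and 0.53 in NRF2 KO, beside -0.01 and -0.00 over all genes tested, and 21 and 24 members had a positive value. Every WT MR mouse was above every WT Con mouse for 8 of 27 members, beside 5.32% of all genes. In NRF2 KO this held for 2 of 27, beside 2.62% of all genes.

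The count in WT changed when single mice were left out and when 1 covariate was added. It was 4 without WT_CON_7605, 4 without WT_MR_7609, 4 without WT_MR_7615 and 5 without WT_MR_7616, and 12 without KO_CON_7620, which adds to the shared estimate of spread. Mvk, Insig2, Stard4 and Tmem97 were called in each of the 4 smallest of these fits. Without the library labelled WT_CON_7607 it was 7, and with all 24 mice 9, whereas in NRF2 KO all 24 mice left 9 of 14. A score of circadian clock genes (mean log2 CPM of Arntl, Npas2 and Clock minus that of Dbp, Nr1d1, Nr1d2 and Per3) was -3.52 ± 0.72 on Con and -4.94 ± 0.46 on MR for WT (SD, n = 5), and -5.63 ± 0.30 on Con and -5.74 ± 0.34 on MR for NRF2 KO (n = 6). With this score as a covariate 1 member, Insig2, was called in WT and 13 in NRF2 KO. The median over members in WT was 0.37 with it and 0.33 without it, but single genes moved either way. Idi1 at 0.91, Fdft1 at 0.80 and Msmo1 at 0.87 were larger than without the score. Insig2 at -1.13, Tmem97 at 0.37, Stard4 at 0.29 and Mvk at 0.55 were smaller in size. Members with a positive value numbered 19 with the score and 21 without it. The median standard error of the members rose from 0.19 to 0.29. The score ran from -4.37 to -2.49 in WT Con and from -5.23 to -4.14 in WT MR. With so little overlap, this fit could separate the score from diet in WT only in part. The part of the clock in the result was not tested otherwise.

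**Figure D1:**
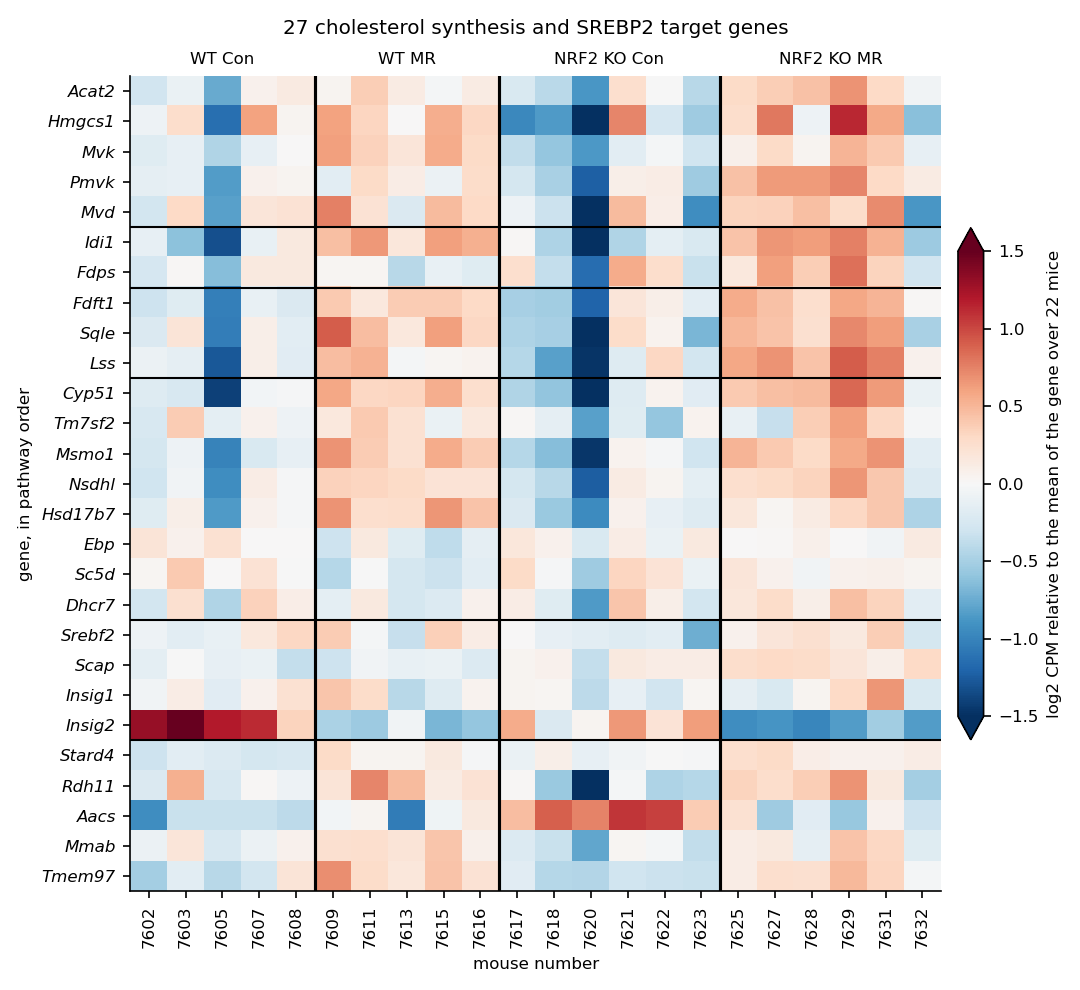
Level of each of the 27 genes (rows, in pathway order) in each of the 22 mice (columns, by mouse number), as log2 CPM relative to the mean of the gene, with colours clipped at 1.5 in either direction. Mice WT_CON_7605 and KO_CON_7620 are blue down most of the pathway, and Insig2 runs opposite to the enzymes, red in WT Con and blue in NRF2 KO MR.

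The same spread between mice is seen in the mean over the 27 members of log2 CPM relative to each gene's mean. For WT it was -0.11 ± 0.25 on Con and 0.16 ± 0.10 on MR (SD, n = 5), and for NRF2 KO -0.23 ± 0.36 on Con and 0.20 ± 0.22 on MR (n = 6). The lowest mouse of WT Con was at -0.53, of NRF2 KO Con at -0.89 and of NRF2 KO MR at -0.21. In both genotypes the Con and MR mice overlapped.

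**Figure D2:**
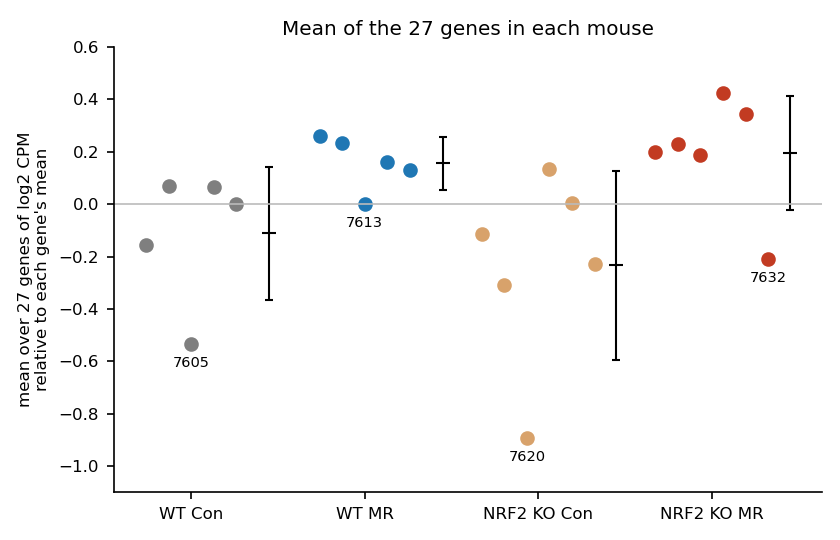
Mean over the 27 genes of log2 CPM relative to each gene's mean (y axis), 1 point a mouse, with group mean ± SD as the black bars and the 4 named mice that were most often lowest. Mice WT_CON_7605 at -0.53 and KO_CON_7620 at -0.89 lie well below the rest of their Con groups, and KO_MR_7632 at -0.21 below the other NRF2 KO MR mice.

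Short sequence motifs were sought in the promoters of the members, and CCAAT and GGGCGG occurred in most. RefSeq promoter windows of GRCm38.p6, 250 bases before to 50 after each start, were at hand for 23 of 27 members and for 27025 genes in all. On either strand, CCAAT, the box bound by NF-Y, occurred in 20 of 23 members (87.0%) and in 41.1% of all genes, and GGGCGG, bound by Sp1, in 20 of 23 (87.0%) and 38.2%. The E-box CACGTG occurred in 6 of 23 (26.1%) and 8.1%. The sterol regulatory element core TCACNCCAC occurred in 1 of 23 (4.3%), Hmgcs1, and in 1.4% of all genes. These are matches of letters, and the motifs were chosen as known neighbours of SREBP2 sites. A site that differs from these letters or lies outside the window would be missed, so the lack of a match is not the lack of a site. The genes set beside the members were not limited to those expressed in liver. Windows of Mvk and Mmab overlap, so some boxes count for both.

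The pathway starts with 5 enzymes that make and activate mevalonate, of which 1 was called in WT and 3 in NRF2 KO, all higher. Acat2 (chr17:12942890-12960747) joins acetyl-CoA units into acetoacetyl-CoA. Its CPM was 91.2, 104, 65.8, 116 and 122 in WT Con and 115, 144, 121, 109 and 121 in WT MR. Among NRF2 KO Con mice it ran from 60.7 over a median of 89.4 to 133, and in NRF2 KO MR from 107 over 140.4 to 178. The MR mice were mostly higher and the groups overlapped in both genotypes. Acat2 rose in NRF2 KO (0.59 ± 0.16, adjusted p = 0.0175) and was not called in WT (0.29 ± 0.17, adjusted p = 0.289). In the last 500 bases of its transcripts, 20.9% of the 50-base windows also occur in other transcripts on the same strand. On the other strand the share is 20.9% too (Acat3 and Tcp1).

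Hmgcs1 makes HMG-CoA from acetoacetyl-CoA and is a classic SREBP2 target. On Con it averaged 818 ± 308 CPM in WT (SD, n = 5) and 605 ± 378 CPM in NRF2 KO (n = 6), and on MR 1029 ± 163 CPM in WT (n = 5) and 1084 ± 441 CPM in NRF2 KO (n = 6). Mice of 1 group differed several-fold, from 250.5 to 1321 CPM in NRF2 KO Con, and the groups overlapped. The differences were 0.33 ± 0.39 in WT (adjusted p = 0.627), against 0.84 ± 0.36 in NRF2 KO (adjusted p = 0.130), so neither was called. Its promoter is printed because it is the 1 member window with the sterol regulatory element core, which starts 137 bases before the RefSeq start; capitals mark that core and the CCAAT boxes (ATTGG on the other strand), in chr13:119690101-119690350 on the plus strand.
Hmgcs1: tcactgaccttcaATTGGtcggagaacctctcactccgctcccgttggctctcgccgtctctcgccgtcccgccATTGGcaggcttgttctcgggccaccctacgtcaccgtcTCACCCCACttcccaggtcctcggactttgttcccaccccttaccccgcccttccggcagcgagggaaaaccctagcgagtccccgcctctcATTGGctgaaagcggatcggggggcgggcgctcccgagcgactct

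Mvk (chr5:114444269-114460591) phosphorylates mevalonate. Its CPM was 19.96, 20.8, 16.5, 20.8 and 22.8 in WT Con and 34.6, 28.8, 25.7, 33.5 and 27.6 in WT MR. The NRF2 KO Con values ran from 12.5 over a median of 18.0 to 22.2, and in NRF2 KO MR from 20.8 over 25.8 to 32.2. Every WT MR mouse was above every WT Con mouse, while the NRF2 KO groups overlapped slightly. Mvk rose in both genotypes, by 0.57 ± 0.14 in WT (adjusted p = 0.00677), against 0.58 ± 0.12 in NRF2 KO (adjusted p = 0.00338), and the interaction of 0.01 ± 0.18 was not called (adjusted p = 0.997).

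Mmab, which makes the cobalamin coenzyme of methylmalonyl-CoA mutase, is transcribed away from Mvk on the other strand (chr5:114431034-114444060). The RefSeq starts of this pair leave 241 bases between them. The stretch outside both genes in GENCODE, chr5:114444061-114444268, is printed on the plus strand because both genes share it and both were called; its capitals mark 5 CCAAT boxes (ATTGG on the other strand).
Mvk and Mmab: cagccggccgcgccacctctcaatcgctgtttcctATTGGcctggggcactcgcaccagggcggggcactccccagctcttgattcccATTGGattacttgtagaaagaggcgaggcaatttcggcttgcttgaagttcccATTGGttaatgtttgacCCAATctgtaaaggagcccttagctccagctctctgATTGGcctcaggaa

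Mmab gave 24.4, 29.4, 22.02, 24.4 and 27.02 CPM in WT Con and 30.6, 30.8, 29.6, 34.5 and 27.4 CPM in WT MR. Among the NRF2 KO Con mice it ran from 15.1 over a median of 21.6 to 26.5 CPM, and in NRF2 KO MR from 22.9 over 28.4 to 34.7 CPM. The MR mice were higher with overlap in both genotypes. Mmab rose in NRF2 KO (0.39 ± 0.12, adjusted p = 0.0292), and its 0.26 ± 0.13 in WT was not called (adjusted p = 0.176).

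Pmvk and Mvd take phosphomevalonate to isopentenyl diphosphate. Pmvk (chr3:89454541-89469013) gave 65.6, 66.2, 40.3, 75.3 and 74.1 CPM in WT Con and 64.4, 88.2, 77.9, 67.7 and 87.5 CPM in WT MR. In NRF2 KO Con it ran from 30.9 over a median of 55.9 to 78.0 CPM, and in NRF2 KO MR from 78.8 over 105 to 119 CPM. The WT groups overlapped widely, whereas every NRF2 KO MR mouse was above every NRF2 KO Con mouse. Pmvk rose in NRF2 KO (0.81 ± 0.18, adjusted p = 0.00644) and was not called in WT (0.26 ± 0.20, adjusted p = 0.425), and the difference between the genotypes, 0.55 ± 0.27, was not called (adjusted p = 0.667). Mvd was not called, at 0.37 ± 0.33 in WT (adjusted p = 0.513), against 0.53 ± 0.30 in NRF2 KO (adjusted p = 0.272).

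Of the 2 isoprenoid enzymes, Idi1 was called in both genotypes and Fdps in neither. Idi1 (chr13:8885501-8892451), which interconverts the isopentenyl units, gave 6.07, 4.33, 2.66, 6.14 and 7.31 CPM in WT Con and 9.03, 10.4, 7.43, 10.1 and 9.58 CPM in WT MR. Among NRF2 KO Con mice it ran from 2.23 over a median of 5.24 to 6.67 CPM, and in NRF2 KO MR from 4.54 over 9.85 to 11.2 CPM. The WT groups did not overlap, and in NRF2 KO MR mouse KO_MR_7632 alone lay within the Con range. Idi1 rose by 0.81 ± 0.26 in WT (adjusted p = 0.0424), against 0.87 ± 0.24 in NRF2 KO (adjusted p = 0.0185). Its call in WT held in 12 of the 22 fits that left out 1 mouse, and that in NRF2 KO in all 22. Of the 50-base windows in the last 500 bases of its transcripts, 43.2% also occur in transcripts annotated to other loci (Gm13502, Gm35570, Gm7654 and Gm8911).

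Fdps joins the units into farnesyl diphosphate. On Con it averaged 129 ± 27.3 CPM in WT (SD, n = 5) and 135 ± 50.7 CPM in NRF2 KO (n = 6), and on MR 126 ± 15.6 CPM in WT (n = 5) and 178 ± 45.1 CPM in NRF2 KO (n = 6), with overlap throughout. Its change was -0.03 ± 0.25 in WT (adjusted p = 0.954), against 0.40 ± 0.23 in NRF2 KO (adjusted p = 0.267). The value is uncertain, since 74.0% of its 3′ windows occur in other annotated transcripts, among them Gm43738, which overlaps Fdps on the same strand.

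Squalene and the first sterol ring are made by Fdft1, Sqle and Lss. Fdft1 (chr14:63145150-63179578) joins farnesyl units into squalene, and it gave 48.1, 52.5, 29.3, 55.3 and 51.3 CPM in WT Con and 78.4, 66.4, 77.5, 77.3 and 73.5 CPM in WT MR. The NRF2 KO Con values ran from 25.9 over a median of 47.7 to 67.6 CPM, and in NRF2 KO MR from 60.4 over 82.6 to 89.0 CPM. The WT groups were separate and the NRF2 KO groups overlapped. Fdft1 rose by 0.66 ± 0.20 in WT (adjusted p = 0.0304), against 0.69 ± 0.18 in NRF2 KO (adjusted p = 0.0151). Its last 774 bases lie opposite Ctsb, an abundant lysosomal protease gene on the other strand, and whether the counting used strand is not given in the sources used here.

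Sqle oxidises squalene, and its means were 53.6 ± 15.2 CPM on Con and 85.8 ± 17.9 CPM on MR for WT (SD, n = 5), and 45.5 ± 20.2 CPM on Con and 78.6 ± 19.99 CPM on MR for NRF2 KO (n = 6), with overlap between the diets. It was not called, at 0.68 ± 0.32 in WT (adjusted p = 0.160), against 0.79 ± 0.29 in NRF2 KO (adjusted p = 0.0774). Lss (chr10:76531588-76557138) closes the ring to lanosterol, and gave 38.1, 37.0, 16.8, 43.3 and 36.2 CPM in WT Con and 55.8, 58.0, 39.8, 41.4 and 41.96 CPM in WT MR. For NRF2 KO on Con it ran from 14.6 over a median of 31.9 to 50.3 CPM, and in NRF2 KO MR from 42.5 over 62.5 to 75.9 CPM. Groups overlapped in both genotypes. Lss had the largest rise of any member in NRF2 KO (0.98 ± 0.24, adjusted p = 0.0124) and was not called in WT (0.48 ± 0.27, adjusted p = 0.253).

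From lanosterol on, the 8 enzymes measured included 4 called higher with MR in at least 1 genotype, all before Ebp, and 0 called lower by edgeR's test. Cyp51 (chr5:4081145-4104746), which removes the first methyl group of lanosterol, gave 224, 217, 97.1, 250.3 and 254 CPM in WT Con and 383, 318, 321, 376 and 305 CPM in WT MR. In NRF2 KO Con it ran from 90.9 over a median of 206 to 266 CPM, and in NRF2 KO MR from 240.1 over 354 to 468 CPM. The WT groups did not overlap, and the change of 0.71 ± 0.25 was not called (adjusted p = 0.0628). It was called in 3 of the alternative fits. Mouse WT_CON_7605 lay far below the others of its group, and the change was 0.53 without it. In NRF2 KO Cyp51 rose (0.88 ± 0.23, adjusted p = 0.0150), with 25.9% of its 3′ windows opposite Akap9.

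Tm7sf2, a sterol reductase of the next step, was not called, at 0.17 ± 0.17 in WT (adjusted p = 0.557), against 0.42 ± 0.16 in NRF2 KO (adjusted p = 0.0832). Msmo1 (chr8:64718139-64733792), the oxidase that starts removal of the remaining methyl groups, gave 248, 281, 149, 255 and 272 CPM in WT Con and 473, 386, 350, 436 and 387 CPM in WT MR. Among NRF2 KO Con mice it ran from 108 over a median of 231 to 308 CPM, and in NRF2 KO MR from 266 over 408 to 474 CPM. WT groups were separate and NRF2 KO groups overlapped. Msmo1 rose by 0.75 ± 0.22 in WT (adjusted p = 0.0247), against 0.79 ± 0.20 in NRF2 KO (adjusted p = 0.0119).

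Nsdhl (chrX:72918557-72958514) and Hsd17b7 (chr1:169949535-169969241) act with Msmo1 in the same demethylation. Nsdhl gave 68.5, 81.4, 44.1, 91.3 and 82.9 CPM in WT Con and 107, 105, 103, 97.0 and 97.0 CPM in WT MR. The NRF2 KO Con values ran from 35.7 over a median of 73.2 to 91.5 CPM, and in NRF2 KO MR from 73.0 over 105 to 133 CPM. The WT MR mice all lay above the WT Con mice, yet Nsdhl was called in NRF2 KO (0.57 ± 0.19, adjusted p = 0.0488) and not in WT (0.47 ± 0.20, adjusted p = 0.132). Its call in NRF2 KO was near the threshold and was lost in most fits that left out 1 mouse.

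Hsd17b7 gave 82.3, 99.0, 51.7, 98.0 and 91.9 CPM in WT Con and 148, 111, 112, 148 and 126 CPM in WT MR. Values of NRF2 KO Con mice ran from 48.6 over a median of 80.8 to 97.8 CPM, and in NRF2 KO MR from 67.8 over 104 to 124 CPM. WT groups did not overlap and NRF2 KO groups did. Hsd17b7 rose in WT (0.61 ± 0.19, adjusted p = 0.0317) and was not called in NRF2 KO (0.42 ± 0.17, adjusted p = 0.109).

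Ebp, Sc5d and Dhcr7 rearrange and reduce the double bonds of the sterol in the last steps measured, and none was called in either genotype. Ebp averaged 297 ± 22.2 CPM (SD, n = 5) in WT Con and 248 ± 36.6 in WT MR (n = 5), a change of -0.26 ± 0.09 (adjusted p = 0.0612). Sc5d averaged 649 ± 80.1 and 505 ± 57.1 CPM in these groups, a change of -0.36 ± 0.12 (adjusted p = 0.0509). Both were called lower in WT by DESeq2's Wald test, by edgeR's test with at least 10 counts in every mouse, and without WT_MR_7611 or KO_CON_7620. In NRF2 KO their values were -0.00 ± 0.08 (adjusted p = 0.992) and 0.01 ± 0.11 (adjusted p = 0.976). Dhcr7 stood at -0.09 ± 0.18 in WT (adjusted p = 0.791), against 0.27 ± 0.16 in NRF2 KO (adjusted p = 0.313).

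**Figure D3:**
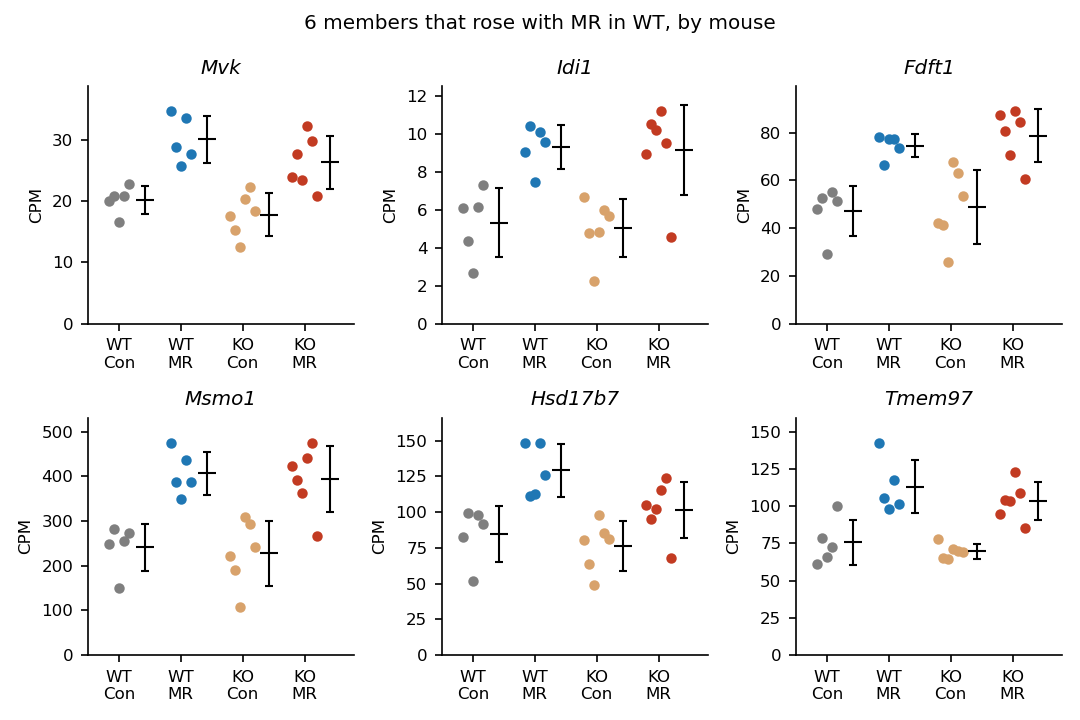
CPM of Mvk, Idi1, Fdft1, Msmo1, Hsd17b7 and Tmem97 in each mouse (1 point each) by group, with mean ± SD as black bars and axes from 0. In WT the MR points lie above the Con points for each gene except Tmem97, where the highest Con mouse at 100.3 CPM is above the lowest MR mouse at 98.4 CPM.

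Of SREBP2 and the proteins that govern it, Srebf2, Scap and Insig1 were called with MR in neither genotype and Insig2 fell in both. Srebf2, the gene of SREBP2, on Con averaged 28.0 ± 4.01 CPM in WT (SD, n = 5) and 23.7 ± 3.73 CPM in NRF2 KO (n = 6), and on MR 29.7 ± 5.84 CPM in WT (n = 5) and 29.99 ± 4.22 CPM in NRF2 KO (n = 6). Its log2 fold changes were 0.08 ± 0.14 in WT (adjusted p = 0.766), against 0.34 ± 0.13 in NRF2 KO (adjusted p = 0.0756). Insig1, itself a target of SREBP2, had a log2 fold change of 0.02 ± 0.16 in WT (adjusted p = 0.965), against 0.21 ± 0.15 in NRF2 KO (adjusted p = 0.374). Intervals of 2 standard errors for Insig1 spanned -0.31 to 0.34 for WT mice and -0.08 to 0.51 for NRF2 KO mice.

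Insig2 (chr1:121304353-121332589) codes for the other INSIG protein, which is known to be made in liver from alternative first exons. Its CPM was 326, 379, 301, 286 and 166 in WT Con and 95.0, 90.5, 128, 82.3 and 88.2 in WT MR. In NRF2 KO Con it ran from 114 over a median of 174 to 207 CPM, and in NRF2 KO MR from 67.1 over 72.6 to 91.6 CPM. Within each genotype the highest MR mouse was under the lowest Con mouse, although WT_CON_7608 was far below the other WT Con mice. Insig2 fell by 1.59 on the log2 scale in WT (standard error 0.19, adjusted p = 1.95e-05) and by 1.17 in NRF2 KO (standard error 0.17, adjusted p = 0.000157), the largest changes of any member in either genotype. The interaction was 0.42 ± 0.25 (adjusted p = 0.729).

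RefSeq places 3 starts in Insig2, the later ones 4565 and 4911 bases after the first, and the 3′ reads do not tell which start was used. The promoters of both INSIG genes are printed because Insig2 moved and Insig1 did not pass the test. Capitals mark CCAAT boxes (ATTGG on the other strand) and, in Insig1, the E-box CACGTG. The Insig1 stretch is chr5:28071162-28071362 on the plus strand, and that of the first Insig2 start is chr1:121332590-121332839 on the minus strand; of the Insig2 windows, CCAAT occurred in that of the first start and GGGCGG in those of the later starts.
Insig1: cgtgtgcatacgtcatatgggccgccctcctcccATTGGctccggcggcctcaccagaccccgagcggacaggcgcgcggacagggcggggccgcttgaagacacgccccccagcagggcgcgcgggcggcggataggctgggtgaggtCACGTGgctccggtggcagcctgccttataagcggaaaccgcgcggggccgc
Insig2: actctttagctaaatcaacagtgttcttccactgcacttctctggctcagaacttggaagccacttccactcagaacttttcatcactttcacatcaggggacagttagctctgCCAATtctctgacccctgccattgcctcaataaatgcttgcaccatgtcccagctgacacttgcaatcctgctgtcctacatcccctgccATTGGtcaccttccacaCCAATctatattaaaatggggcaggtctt

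**Figure D4:**
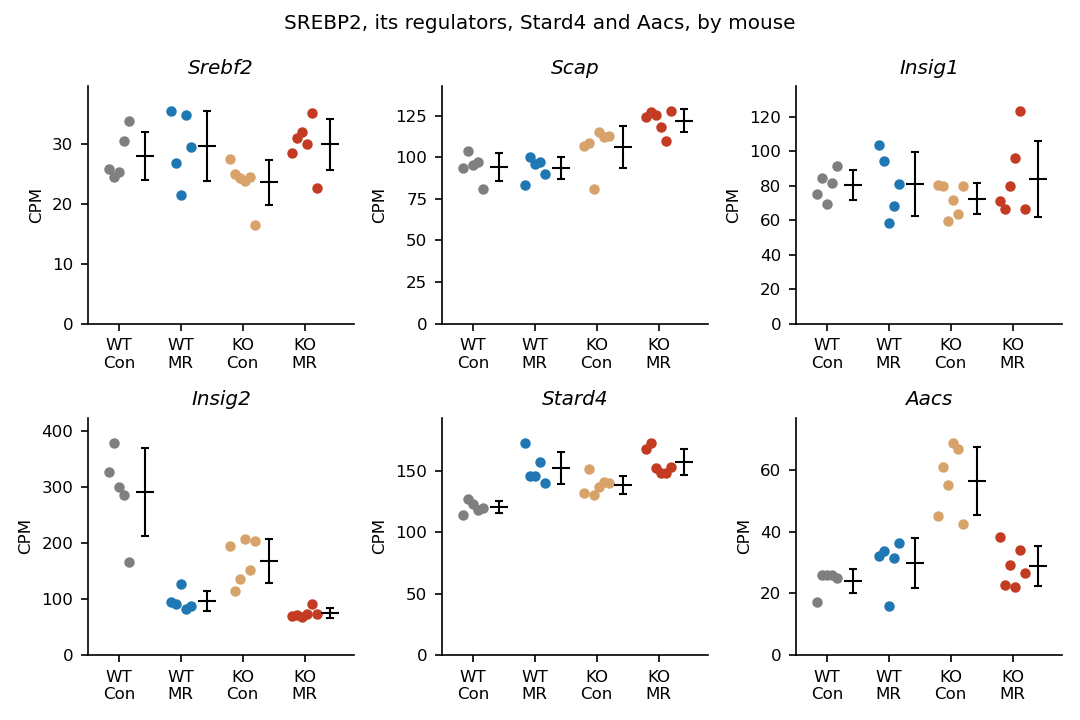
CPM of Srebf2, Scap, Insig1, Insig2, Stard4 and Aacs in each mouse (1 point each) by group, with mean ± SD as black bars and axes from 0. Insig2 is lower on MR in both genotypes without overlap, and Aacs is high in the NRF2 KO Con mice, 42.6 to 68.8 CPM, against 15.8 to 38.3 CPM in the other groups.

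Among the further SREBP2 targets, Stard4 and Tmem97 carry or bind sterols. Stard4, a cytosolic cholesterol carrier, gave 114, 127, 123, 118 and 120.0 CPM in WT Con and 172, 146, 146, 157 and 140.5 CPM in WT MR. Among NRF2 KO Con mice it ran from 131 over a median of 138 to 151 CPM, and in NRF2 KO MR from 148 over 153 to 173 CPM. Replicates lay close together and the WT groups were separate. Stard4 rose in WT (0.34 ± 0.07, adjusted p = 0.00232) and was not called in NRF2 KO (0.18 ± 0.06, adjusted p = 0.0610), where every Con mouse was above every WT Con mouse, a difference that was not called either (0.20 ± 0.07, adjusted p = 0.133).

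Tmem97 (chr11:78541817-78550777), a sterol-binding membrane protein also known as the sigma-2 receptor, gave 61.3, 78.6, 65.5, 72.6 and 100.3 CPM in WT Con and 142, 106, 98.4, 117 and 102 CPM in WT MR. The NRF2 KO Con values ran from 64.6 over a median of 69.6 to 78.1 CPM, and in NRF2 KO MR from 85.6 over 104 to 123 CPM. NRF2 KO groups did not overlap, and in WT 1 Con mouse passed the lowest MR mouse. Tmem97 rose by 0.58 ± 0.12 in WT (adjusted p = 0.00212), against 0.57 ± 0.11 in NRF2 KO (adjusted p = 0.00130). The 208 bases before its GENCODE start, chr11:78550778-78550985 on the minus strand, are printed as the promoter of a member outside the synthesis pathway that rose in both genotypes, with its CCAAT box in capitals.
Tmem97: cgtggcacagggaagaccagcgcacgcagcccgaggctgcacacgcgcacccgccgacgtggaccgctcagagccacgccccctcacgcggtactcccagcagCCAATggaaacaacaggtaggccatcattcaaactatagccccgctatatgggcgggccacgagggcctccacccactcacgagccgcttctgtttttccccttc

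Rdh11 (chr12:79174337-79192293), a retinol dehydrogenase, gave 75.6, 127, 73.9, 88.7 and 83.1 CPM in WT Con and 99.9, 145, 122, 95.5 and 102 CPM in WT MR. The range of NRF2 KO Con mice ran from 28.9 over a median of 64.2 to 88.9 CPM, and in NRF2 KO MR from 61.3 over 108 to 139 CPM. Groups overlapped in both genotypes. Rdh11 rose in NRF2 KO (0.68 ± 0.22, adjusted p = 0.0499), at the edge of the threshold, and was not called in WT (0.34 ± 0.24, adjusted p = 0.395). Its call in NRF2 KO held in 4 of the 22 fits that left out 1 mouse.

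Aacs (chr5:125475814-125517410), which activates the ketone body acetoacetate for lipid synthesis, fell in NRF2 KO, unlike the other 4 targets. Its CPM was 17.2, 26, 25.99, 26.01 and 25 in WT Con and 32.0, 33.9, 15.8, 31.5 and 36.4 in WT MR. In NRF2 KO Con it ran from 42.6 over a median of 58.1 to 68.8 CPM, and in NRF2 KO MR from 22.1 over 27.8 to 38.3 CPM. All NRF2 KO Con mice lay above every other mouse, and the remaining groups overlapped. Aacs fell in NRF2 KO (-0.97 ± 0.18, adjusted p = 0.00130), was not called in WT (0.31 ± 0.20, adjusted p = 0.319), and had an interaction of -1.28 ± 0.27 (adjusted p = 0.0940). That interaction was not called, but it was without WT_MR_7613 (adjusted p = 0.00463) and by DESeq2's Wald test (adjusted p = 0.00118). Its promoter, chr5:125475623-125475813 on the plus strand, is printed as the contrast to those above, since its RefSeq window held none of the 4 motifs.
Aacs: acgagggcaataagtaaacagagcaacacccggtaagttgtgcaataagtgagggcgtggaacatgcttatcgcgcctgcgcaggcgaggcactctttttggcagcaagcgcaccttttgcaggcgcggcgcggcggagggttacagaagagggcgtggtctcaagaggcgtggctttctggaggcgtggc

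**Figure D5:**
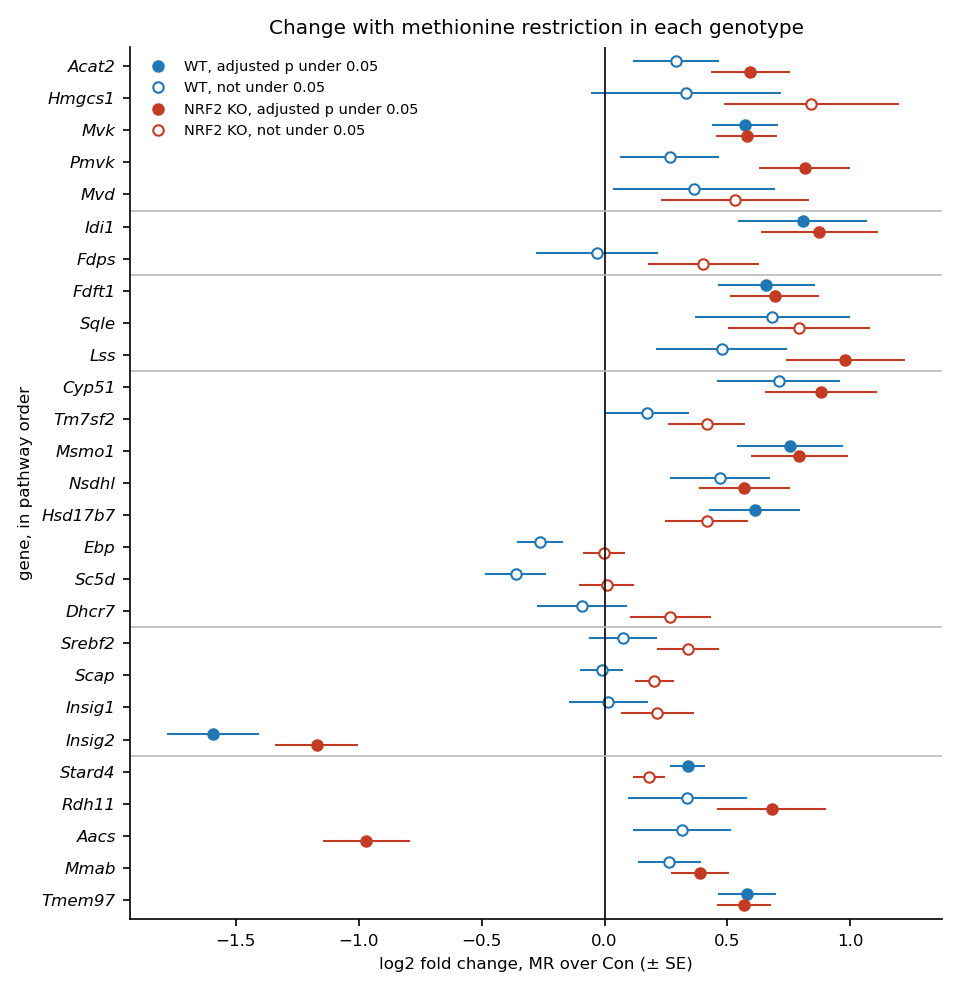
Log2 fold change of MR over Con (x axis, ± standard error) for each gene in pathway order, blue for WT and red for NRF2 KO, filled where the adjusted p of edgeR's test was under 0.05. Most points lie right of 0 down to Hsd17b7, while Ebp, Sc5d and Dhcr7 lie near or left of 0 in WT, and Insig2 at -1.59 and -1.17 lies far left.

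Between the genotypes on 1 diet, 3 differences among these genes were called. On the Con diet 2 of 27 members were called, beside 2.07% of all genes, and 22 of 27 had a negative value, with a median of -0.12. That median was -0.27 without WT_CON_7605 and -0.0208 without KO_CON_7620, and 0.0249 with the clock score as a covariate. Aacs was higher in NRF2 KO (1.23 ± 0.19, adjusted p = 0.000992) and Insig2 lower (-0.80 ± 0.17, adjusted p = 0.0143). With the clock score as a covariate neither was called, at 0.64 for Aacs (adjusted p = 0.674) and -0.10 for Insig2 (adjusted p = 0.960). The score ran from -4.37 to -2.49 in WT Con and from -6.00 to -5.31 in NRF2 KO Con, without overlap. The members' median standard error rose from 0.18 to 0.38 with it, so that fit could not separate the score from genotype. Without WT_CON_7603 Insig2 was not called (adjusted p = 0.0525). On the MR diet 1 of 27 was called, beside 1.93% of all genes. This was Scap, the escort of SREBP2, which averaged 93.3 ± 6.67 CPM (SD, n = 5) in WT MR and 122 ± 6.90 in NRF2 KO MR (n = 6), without overlap (0.39 ± 0.08, adjusted p = 0.00988). Scap on Con averaged 94.0 ± 8.29 CPM in WT and 106 ± 12.7 in NRF2 KO, a difference of 0.17 ± 0.08 (adjusted p = 0.345), and its log2 fold change with MR was -0.01 ± 0.09 in WT (adjusted p = 0.955), against 0.20 ± 0.08 in NRF2 KO (adjusted p = 0.0921).

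The interaction of diet and genotype asked whether MR acted differently in NRF2 KO. By edgeR's test 0 of 27 members were called, beside 0.045% of all genes, 3 had an unadjusted p under 0.05, and DESeq2's Wald test called 1, Aacs. The median interaction was 0.20, or 0.0232 with the clock score as a covariate, and the intervals were wide, as for Hmgcs1 from -0.54 to 1.56 and Lss from -0.21 to 1.22. These comparisons share mice with each other, so their values are not separate evidence.

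Of 14 genes tested for SREBP processing and sterol-regulated degradation, 3 were higher with MR in WT and 3 in NRF2 KO, and 0 lower by edgeR's test. Beside them 6.91% of all genes were called higher in WT and 6.23% in NRF2 KO. Erlin1, a membrane protein of sterol-regulated degradation, rose in both (0.42 ± 0.12, adjusted p = 0.0207, and 0.44 ± 0.11, adjusted p = 0.00944). Pgrmc1, a haem-binding partner of sterol enzymes, rose in WT (0.48 ± 0.13, adjusted p = 0.0138). Of this list, Srebf1, the gene of the fatty acid regulator SREBP1, had values of -0.60 ± 0.32 in WT (adjusted p = 0.225), against -0.51 ± 0.28 in NRF2 KO (adjusted p = 0.266) and was named after its values were seen. In NRF2 KO the others were the ubiquitin ligase gene Syvn1 (0.55 ± 0.18, adjusted p = 0.0470) and Ubxn4 (0.27 ± 0.09, adjusted p = 0.0457). Between the genotypes on MR, Pgrmc1 was lower in NRF2 KO (-0.56 ± 0.12, adjusted p = 0.00974).

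Of 17 genes on branches from isoprenoid and sterol intermediates, 1 was higher and 1 lower in each genotype, a share near that of all genes called in each direction. Hsd17b12, a reductase of fatty acid elongation and steroids, fell in WT (-0.46 ± 0.09, adjusted p = 0.00202) and NRF2 KO (-0.41 ± 0.09, adjusted p = 0.00277). Rabggtb, a prenyl transferase subunit, rose in WT (0.37 ± 0.10, adjusted p = 0.0142), and Nus1, for dolichol synthesis, in NRF2 KO (0.28 ± 0.09, adjusted p = 0.0464). Of 16 genes for cholesterol export, storage and LXR targets, 1 was higher in WT and 4 in NRF2 KO, and 0 lower. Beside them 6.91% of all genes were called higher in WT, near the share of this list, and 6.23% in NRF2 KO. Soat2, which esterifies cholesterol in hepatocytes, on Con averaged 25.1 ± 3.62 CPM in WT (SD, n = 5) and 25.3 ± 2.91 CPM in NRF2 KO (n = 6), and on MR 39.8 ± 2.99 CPM in WT (n = 5) and 41.1 ± 3.54 CPM in NRF2 KO (n = 6). It rose without overlap by 0.67 ± 0.10 in WT (adjusted p = 0.000103), against 0.70 ± 0.09 in NRF2 KO (adjusted p = 2.4e-05). The others in NRF2 KO were Ces1d (0.58 ± 0.18, adjusted p = 0.0407), the lysosomal cholesterol exporter Npc1 (0.30 ± 0.08, adjusted p = 0.0174) and Nr1h2 (0.23 ± 0.07, adjusted p = 0.0368), the gene of a liver X receptor.

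Some markers of other cells in the liver moved with the diet. Over all genes 6.91% were called lower and 6.91% higher in WT, and 6.34% lower and 6.23% higher in NRF2 KO. Of 8 Kupffer cell markers 4 were called lower in WT and 2 in NRF2 KO, with summed levels of 311 to 416 CPM in WT Con, 245 to 281 in WT MR, 255 to 388 in NRF2 KO Con and 231 to 321 in NRF2 KO MR. Of 5 bile duct markers tested 4 were called lower in WT and 1 in NRF2 KO, with sums of 49.1 to 74.7, 21.3 to 28.4, 31.9 to 53.4 and 20.8 to 29.2 CPM. Of 8 stellate cell markers 4 were called lower in WT and 3 in NRF2 KO, with sums of 438 to 721, 385 to 492, 503 to 571 and 425 to 549 CPM. Of 8 sinusoidal endothelial markers 0 were called in WT by edgeR's test and 1, Kdr, was higher in NRF2 KO (0.24 ± 0.06, adjusted p = 0.0126). By edgeR's test 0 of 3 T and B cell markers tested were called in either genotype. Of 5 red blood cell markers 1 was called lower in each genotype. No marker of these lists was at 0 in every mouse of a group, and their part in the changes above was not tested.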

How the data were processed

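RNA from whole liver of 24 mice was made into QuantSeq 3′ libraries, and 22 mice in 4 groups were used. The authors deposited raw counts of reads per gene and a table of normalized signal, the counts divided by DESeq2 size factors; the submitters' processing notes name R 3.4.3 and DESeq2 1.18.1. The aligner's settings and whether counting used strand are not given in the sources used here.

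Genes were filtered with filterByExpr, scaled by TMM and tested with edgeR 4.0.16 (limma 3.58.1, R 4.3.3) in 1 quasi-likelihood fit of 4 groups, with Benjamini-Hochberg adjustment over 13336 genes. The step was tested on simulated data. There all genes had the same spread and varied independently, whereas many members here were low together in the same mice. Depth was 6197291 to 22068338 counts per mouse, and the count of a member in a mouse was 42 or more. Alternatives were other scalings and filters, limma on the normalized values with a pseudocount of 1, DESeq2 1.42.0, only the groups compared, all 24 mice, the clock score, and each mouse left out.

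The members and lists were chosen with earlier results of these data known. All 27 members are named, and of the other pathway lists the genes called, except 1 that is not reported here. Each mouse was 1 library. Gene positions and promoter windows are of GRCm38.p6, from GENCODE and RefSeq. Plots used matplotlib 3.10.9 (Python 3.11.15).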

Additional observations from a re-analysis of the deposited data

Results flagged for a closer look

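In 13 of 108 group values (27 genes in 4 groups) 1 mouse stood far from the others of its group. For separate groups chance gives about 1 in 20. These genes were measured in the same mice, so the 13 flags are not separate evidence. Mouse WT_CON_7605 was far below the other WT Con mice for Pmvk (40.34 CPM), Fdft1 (29.28 CPM), Lss (16.8 CPM), Cyp51 (97.07 CPM) and Msmo1 (148.9 CPM). In the same group WT_CON_7603 was high for Rdh11 (126.7 CPM) and WT_CON_7602 low for Aacs (17.18 CPM). In WT MR, mouse WT_MR_7613 was high for Insig2 (127.5 CPM) and low for Aacs (15.82 CPM). In NRF2 KO Con, KO_CON_7623 was low for Srebf2 (16.49 CPM) and KO_CON_7620 low for Scap (80.74 CPM). In NRF2 KO MR, KO_MR_7632 was low for Idi1 (4.545 CPM) and KO_MR_7631 high for Insig2 (91.6 CPM).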

How the results depend on the processing

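No paired analysis was possible because each mouse number belongs to 1 mouse. Members called with MR in WT numbered 1 with the clock score (where their median was 0.37, beside 0.33), 11 with DESeq2 and 4 to 12 with 1 mouse left out. In NRF2 KO they numbered 9 with all 24 mice, 16 with DESeq2, 20 with library size only and 11 to 17 with 1 mouse left out. Library size only moved the median of all genes in NRF2 KO to 0.15, and the members' median less that of all genes was 0.54 with it and with TMM. For genotype on Con they numbered 1 with only the groups compared, 0 with the clock score and 1 to 2 with 1 mouse left out, and on MR 2 with only the groups compared. For the interaction they numbered 1 with DESeq2 and 0 to 1 with 1 mouse left out. The median over members stayed between 0.22 and 0.36 in WT and 0.36 and 0.62 in NRF2 KO with 1 mouse left out. Of the single genes, the following changed sign, most from values near 0, and the cause was not tested. In WT, Fdps was 0.0436 with library size only and 0.12 with all 24 mice, and Scap 0.0866, 0.042 and, with the clock score, 0.0982. The clock score gave -0.12 for Srebf2, -0.058 for Insig1 and -0.10 for Aacs (0.31 without it), and Insig1 was -9e-04 with at least 10 counts in every mouse and -0.0091 with limma. In NRF2 KO, Ebp was 0.0016 with DESeq2 size factors, 0.15 with library size only, 0.0022 with all genes, 0.0085 with limma, 0.0028 with DESeq2, 0.003 with all 24 mice and 0.0026 with the clock score. Genotype on MR for Aacs was 0.0203 with all 24 mice, and the Insig2 interaction -0.0071 with the clock score (0.42 without it). With 1 mouse left out, values in WT ran from -0.14 to 0.0367 for Fdps, -0.19 to 0.0046 for Dhcr7, -0.0015 to 0.18 for Srebf2, -0.0594 to 0.0267 for Scap and -0.0898 to 0.12 for Insig1. In NRF2 KO they ran from -0.0492 to 0.0337 for Ebp and -0.0861 to 0.0684 for Sc5d, and between genotypes on MR from -0.22 to 0.0241 for Aacs.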

Other observations

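The 2 mice set aside were low for most of these genes. Mouse WT_CON_7604 gave 142 CPM for Hmgcs1, 7.58 for Mvk, 20.3 for Fdft1, 80.4 for Msmo1 and 75.8 for Stard4, while Insig2 was at 232 CPM and Srebf2 at 25.5 CPM. Mouse WT_MR_7612 gave 648 CPM for Hmgcs1, 24.5 for Mvk, 58.1 for Fdft1, 256 for Msmo1 and 122 for Stard4, with Insig2 at 82.3 CPM and Srebf2 at 27.7 CPM.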
